A study of Mus musculus with 16 samples.

Results

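Gene starts that lie inside another gene were examined in growing mouse oocytes. A start was counted as nested where it fell within another listed gene and at least 2 kb from the start of that host, and its region was the start plus and minus 500 bp. Of the 24483 genes listed on chromosomes 1 to 19, 2569 (10.5%) had a nested start. In 1903 the host lay on the opposite strand, in 592 on the same strand, and in 74 there were hosts on both strands. The oocytes came from wild-type mice, labelled C57BL/6 and given as the C57BL/6Babr substrain in the study's methods, collected from juvenile animals that were older for each larger size class, and each library pooled many oocytes. RRBS, which sequences CpG-rich restriction fragments after bisulphite treatment, was done in duplicate (A and B) on oocytes measuring 40–45 μm, 50–55 μm or 60–65 μm across. PBAT, which samples the whole genome, was done once at 60–65 μm, so its values have no replicate. RNA-seq was done in duplicate on these 3 classes and on small oocytes of 10–30 μm, and once on oocytes at the germinal vesicle (GV) stage. Nothing in the sources states that A and B came from separate animals, so p-values measure only the spread between these libraries.

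Oocytes are almost free of DNA methylation when growth begins and acquire it before ovulation, mainly across the bodies of transcribed genes. Promoters rich in CpG usually escape. An internal promoter is a special case because it can be crossed by a transcript that began elsewhere, and several imprinted genes, whose germline methylation mark is set in the oocyte, sit inside a host in this way. Methylation that follows passage of a host transcript has been linked to histone marks left by elongating polymerase.

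To show what is being measured, the 250 bases before the start are given for 5 nested genes whose starts reached 43.9% or more in every 60–65 μm library (RefSeq genome, GRCm38; 5′ to 3′ on the strand of the nested gene; CpGs in capitals). None of these bases lies in an annotated exon.
Zrsr1 (chr11:22971755-22972004, plus strand): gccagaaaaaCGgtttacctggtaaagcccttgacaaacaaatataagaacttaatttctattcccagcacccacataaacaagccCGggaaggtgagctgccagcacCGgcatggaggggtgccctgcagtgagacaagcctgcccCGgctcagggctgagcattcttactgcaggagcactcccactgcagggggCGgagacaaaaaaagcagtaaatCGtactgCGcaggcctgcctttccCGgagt
Btbd6 (chr12:112976232-112976481, plus strand): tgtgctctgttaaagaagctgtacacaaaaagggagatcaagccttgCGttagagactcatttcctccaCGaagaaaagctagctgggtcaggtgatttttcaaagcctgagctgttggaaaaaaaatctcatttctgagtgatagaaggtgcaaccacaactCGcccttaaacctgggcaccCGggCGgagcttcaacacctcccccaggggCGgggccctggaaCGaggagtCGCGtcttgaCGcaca
Lxn (chr3:67463927-67464176, minus strand): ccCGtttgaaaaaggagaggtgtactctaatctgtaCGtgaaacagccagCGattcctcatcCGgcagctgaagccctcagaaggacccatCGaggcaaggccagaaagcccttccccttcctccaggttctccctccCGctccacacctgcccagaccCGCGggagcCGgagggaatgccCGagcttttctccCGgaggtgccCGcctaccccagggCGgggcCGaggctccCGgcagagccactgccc
Rps4y2 (chr6:148354406-148354655, plus strand): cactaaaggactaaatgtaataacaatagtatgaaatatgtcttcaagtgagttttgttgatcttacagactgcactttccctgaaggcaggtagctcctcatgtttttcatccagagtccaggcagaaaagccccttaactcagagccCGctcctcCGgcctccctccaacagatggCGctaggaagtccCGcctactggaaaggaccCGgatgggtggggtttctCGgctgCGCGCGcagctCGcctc
Gm11607 (chr1:63200063-63200312, plus strand): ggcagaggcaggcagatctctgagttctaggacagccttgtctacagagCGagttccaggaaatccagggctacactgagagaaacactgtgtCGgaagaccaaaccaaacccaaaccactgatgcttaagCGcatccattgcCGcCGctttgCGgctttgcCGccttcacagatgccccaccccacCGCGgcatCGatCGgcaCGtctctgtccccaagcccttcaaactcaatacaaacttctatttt
The same window is given for 4 nested starts that stayed at 7% or less in every library although their hosts were transcribed.
Ube2g2 (chr10:77622025-77622274, plus strand): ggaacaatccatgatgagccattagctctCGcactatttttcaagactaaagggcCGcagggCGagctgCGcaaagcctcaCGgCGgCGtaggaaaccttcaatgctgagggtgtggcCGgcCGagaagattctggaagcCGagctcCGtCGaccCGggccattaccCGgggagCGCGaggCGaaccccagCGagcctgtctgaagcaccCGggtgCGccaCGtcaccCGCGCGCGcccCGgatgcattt
Itsn1 (chr16:91729031-91729280, plus strand): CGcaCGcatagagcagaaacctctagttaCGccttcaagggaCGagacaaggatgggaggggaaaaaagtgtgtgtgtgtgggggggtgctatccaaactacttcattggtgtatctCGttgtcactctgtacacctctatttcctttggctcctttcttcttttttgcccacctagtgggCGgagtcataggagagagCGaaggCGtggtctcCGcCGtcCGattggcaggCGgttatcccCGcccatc
Samd10 (chr2:181599213-181599462, minus strand): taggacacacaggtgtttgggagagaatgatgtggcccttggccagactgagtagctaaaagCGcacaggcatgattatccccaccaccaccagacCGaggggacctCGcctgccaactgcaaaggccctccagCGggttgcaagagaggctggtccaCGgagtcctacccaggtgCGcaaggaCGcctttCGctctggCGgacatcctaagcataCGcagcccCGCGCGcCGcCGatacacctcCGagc
Lrrc4 (chr6:28831748-28831997, minus strand): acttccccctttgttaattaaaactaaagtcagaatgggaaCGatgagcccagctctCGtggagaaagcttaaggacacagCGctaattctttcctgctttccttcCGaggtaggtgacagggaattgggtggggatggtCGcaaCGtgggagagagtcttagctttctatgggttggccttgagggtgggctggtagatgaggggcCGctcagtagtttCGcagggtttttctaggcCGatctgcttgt
The first set held 8 to 15 CpGs in this window and the second 9 to 26, so the ranges overlapped in these examples, which were chosen with their values known. Zrsr1 encodes a splicing factor relative, Lxn a carboxypeptidase inhibitor, Btbd6 a BTB-domain protein, Ube2g2 a ubiquitin-conjugating enzyme, Itsn1 an endocytic scaffold and Lrrc4 a synaptic adhesion protein.

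Most nested starts were intronic. By the GENCODE annotation, 1834 lay in an intron and 423 in an exon of the host, and for 312 the host could not be matched. The median distance to the host start was 32.2 kb (quartiles 10.7 and 97.6 kb). In 1927 cases the nested gene lay wholly inside the host, and in 642 it reached beyond it. By symbol, 1165 were predicted genes named Gm, 404 ended in Rik, 20 were olfactory receptors, 17 were Hox genes, 14 were Zfp genes, 9 were named as antisense to a listed gene, 8 were Ugt1a genes, 2 were microRNA genes and 1 was a protocadherin. The hosts numbered 1925. The gene model Gm20388, 4.43 Mb long, held 80 nested starts, and Fgfr2, listed at 2.96 Mb, held 34. Regions of 160 nested starts overlapped that of another.

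Nested genes were mostly silent in oocytes. Expression is given as RPKM, reads scaled for exon length and library size, averaged over the 8 libraries of growing oocytes. Of the 2569 nested genes, 1844 were under 0.1 RPKM, 926 were listed at 0 in all 8 libraries, 411 were at 1 RPKM or more and 71 at 10 or more. Their hosts were at least 1 RPKM in 999 cases and under 0.1 RPKM in 1044. Within hosts of at least 1 RPKM, 607 nested genes were under 0.1 RPKM and 250 were at least 1 RPKM. The libraries were strand-specific, but whether the deposited RPKM used the strand is not given in the sources used here, so reads of a nested gene and of its host in shared sequence may not be separable. RPKM of nested gene and host correlated (Spearman) by 0.523 on the same strand and 0.168 on the opposite strand.

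RRBS covered 512 nested starts in all 6 libraries, with at least 5 cytosines of at least 5 calls, and PBAT covered 1478. No library covered 1062 of them at this depth. The median number of CpGs in the region was 16 for all nested starts, 26 for those in PBAT and 67 for those in all 6 RRBS libraries, against 41 for the 21914 other gene starts. RRBS libraries held 29275627 to 55938194 calls on these chromosomes and the PBAT library 94501474. Steps in the RPKM of single-exon genes corresponded to 99.4 to 198 M reads per RNA-seq library. The 11 oocyte markers summed to 2525 to 3796 RPKM in every library, and the 8 granulosa cell markers to 0.740 to 4.07 RPKM. The granulosa sum rose with size and was highest at the GV stage. Of these markers 1 reached 1 RPKM at 60–65 μm and at the GV stage, while Foxl2 and Inhba were under 0.1 RPKM in every class. The sum of the 2 endothelial markers also rose, from 0.539 to 0.577 RPKM at 10–30 μm to 4.19 to 4.71 in the largest growing oocytes and 5.68 at the GV stage. Cdh5 was under 0.1 RPKM throughout, and Pecam1 was at 1 RPKM or more from the 40–45 μm class on. The 4 theca and stroma markers summed to 2.08 to 2.91 RPKM at 10–30 μm, with 2 of them at 1 RPKM or more, and to 0.666 to 0.752 RPKM in the 60–65 μm class. The part of other cells in the results was not tested.

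Nested starts gained methylation as oocytes grew, and other gene starts gained little. Mean methylation of the 512 nested starts was 1.03% (A) and 1.13% (B) in 40–45 μm oocytes. It was 2.53 and 2.77% in the 50–55 μm class, and 4.43 and 4.64% in the largest oocytes. No libraries of different size overlapped. The 10262 other starts went from 0.785 and 0.790% to 0.851 and 1.03% and then 1.01 and 1.15%. The ordered rise of the nested starts had p = 0.0222 in an exact two-sided Jonckheere–Terpstra test over the 90 arrangements of the libraries, which is the smallest that this design can give, and an adjusted p of 0.0267 over the 6 trends tested. For the other starts the exact permutation p was 0.0667, so the trend did not pass. The gap between both groups widened from 0.296 ± 0.064 percentage points (SD, n = 2) at 40–45 μm to 1.72 ± 0.047 and 3.45 ± 0.049. It was above 0 in 6 of 6 libraries, with a mean of 1.82 (exact sign-flip permutation test, two-sided p = 0.0312, the smallest possible; adjusted p = 0.0417 over 4 differences). Under 5 alternatives the difference was positive but its adjusted exact permutation p lay between 0.0625 and 0.0833. With at least 10 cytosines per region it passed but was only 1.09 points.

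The increase was concentrated in few starts. At 60–65 μm, 31 of the 512 nested starts were at 25% or more in both RRBS libraries, against 52 of the 10262 others, whereas at 40–45 μm only 1 nested start was. Between 40–45 and 60–65 μm, limma with Benjamini–Hochberg adjustment called a gain at 32 nested starts (6.25%) and no loss, where 0.826% of all 10774 starts tested gained. Of the 32, 25 had a host of at least 1 RPKM (260 of the 512 tested), 1 a host under 0.1 RPKM (172 tested), and 21 were themselves under 0.1 RPKM (199 tested). Hosts were on the opposite strand in 25 (345 tested) and on the same strand in 7 (160 tested), and 30 of the 32 genes lay wholly inside the host (328 tested). The gains ran from 27.0 to 69.4 percentage points, with a median of 49.8. Without the 40–45 μm library A limma called no nested start, and without each of the other libraries 22 to 29. The edgeR quasi-likelihood test on the calls gave 22, and 44 had an unadjusted limma p under 0.05.

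**Figure D1:**
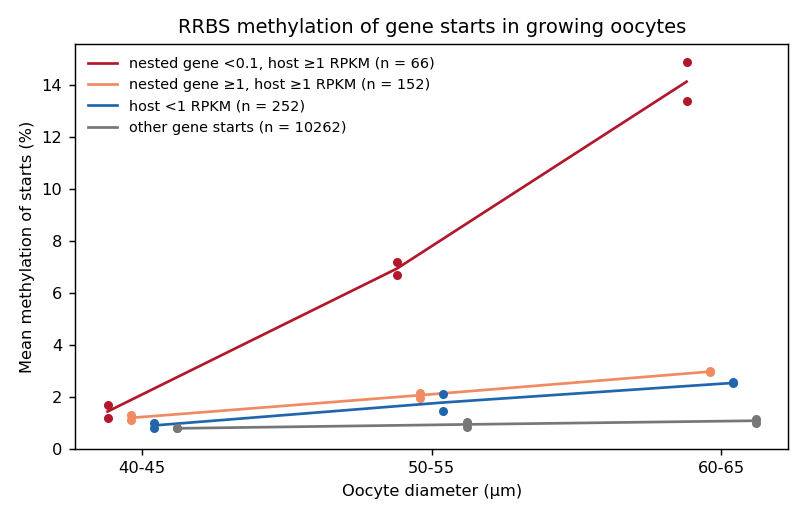
Mean methylation (%) of gene starts by oocyte diameter (μm) in RRBS. Points are single libraries and lines join the means of both libraries; silent nested genes in hosts of at least 1 RPKM reach 13.4 and 14.9% at 60–65 μm, and other gene starts stay at 1.15% or less.

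Each of the 32 starts had a mean at 50–55 μm that lay between those at 40–45 and 60–65 μm. The share of the whole gain reached by then had a median of 35.9% but ran from 5.47 to 78.6%, so the starts were spread widely at that size. From 40–45 to 50–55 μm 4 nested starts passed limma (0.0557% of all starts passed) and from 50–55 to 60–65 μm 16 did (0.418% of all). Each start called in a step was also called over the whole interval, and 1 was called in both steps. At an unadjusted limma p under 0.05 there were 29 and 47, and edgeR called 2 and 0. These step counts were not stable. The first fell to 0 without any 1 of 5 libraries and was 8 without the 60–65 μm library B, and the second fell to 0 without any 1 of the 6.

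The next 4 starts were chosen by their values, in part those at 50–55 μm, and are given as a description. Gm11607, a predicted gene listed at 0 RPKM in all libraries inside Gpr1 (a G-protein-coupled receptor gene), went from 3.81 and 2.65% in the smallest of these oocytes to 43.1 and 51.3% in the next class and 67.6 and 65.9% in the last. Its gain to 60–65 μm was 63.5 ± 5.40 points (SE; limma adjusted p = 1.97e-05). Lrfn1, which encodes a synaptic adhesion protein, lay 139 kb into Samd4b and had 1.21 and 7.82%, then 33.6 and 47.3%, then 58.9 and 71.1%. By contrast Gm15651 in Dgkg (0.118 RPKM) was at 0 and 0.104%, then 4.37 and 0%, then 39.2 and 38.9%. Scx, which encodes the tendon factor scleraxis, lay in Bop1 and went from 0.169 and 0.560% through 9.45 and 10.6% to 32.6 and 37.6%. At 50–55 μm the libraries of some called starts were far apart, with 29.1 and 4.50% at Btbd6 and 22.1 and 60.2% at Mcts2.

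**Figure D2:**
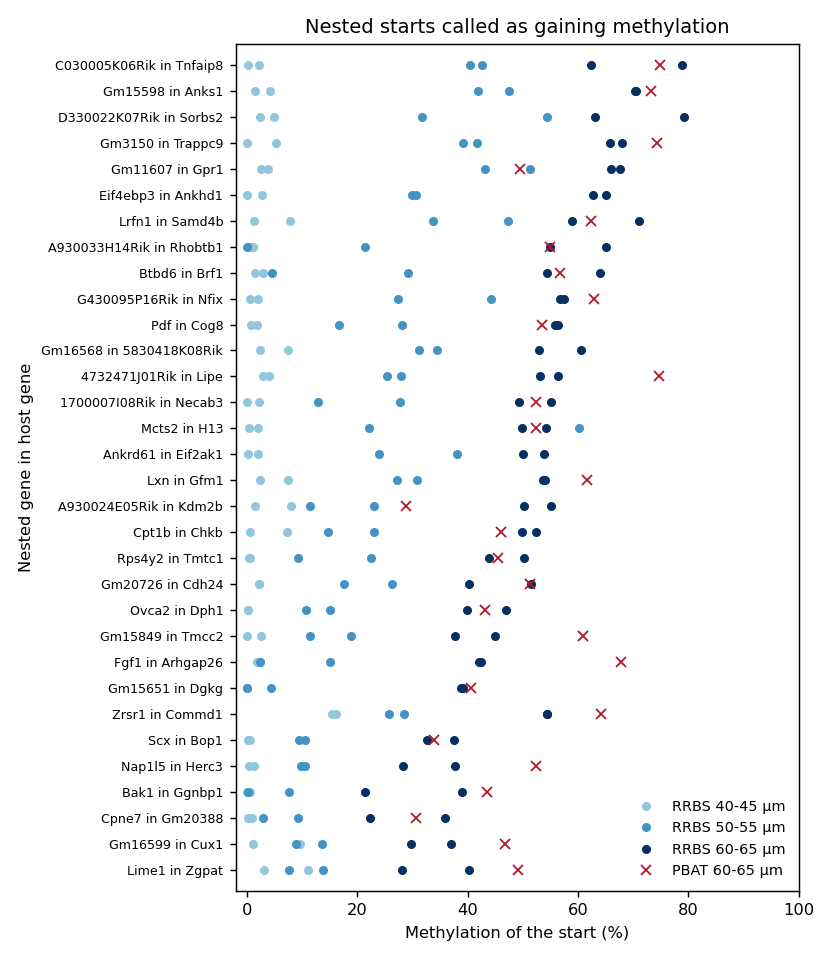
The 32 nested starts called as gaining methylation from 40–45 to 60–65 μm, 1 row each (nested gene in host gene), with methylation (%) on the horizontal axis. Dots are single RRBS libraries, darker with size, and crosses are PBAT. At each start both 60–65 μm dots lie right of both 40–45 μm dots, which the choice of called gains favours. The 50–55 μm dots are spread between 0 and 60.2%.

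Of 47 imprinted or imprint-associated transcripts, 37 were listed and 10 had a nested start. Of the 8 with a host of at least 1 RPKM, 7 were at 31.6 to 74.2% in PBAT and Cdh15 was not. Nap1l5, a retrogene in an intron of Herc3 on the opposite strand (region chr6:58906626-58907626), was at 1.29 and 0.366%, 9.83 and 10.5%, and 28.3 and 37.7% in order of size, and 52.3% in PBAT. Its gain was 32.2 ± 5.09 points (limma adjusted p = 0.00377). Mcts2, a translation-factor retrogene in an intron of H13 on the same strand (chr2:152686648-152687648), was at 2.05 and 0.397%, then 22.1 and 60.2%, then 49.9 and 54.2%, and 52.3% in PBAT. Its 50–55 μm libraries were far apart, and library B there exceeded both later ones. Zrsr1 in an intron of Commd1 (chr11:22971505-22972505) was already at 15.4 and 16.2% at 40–45 μm and reached 54.4 and 54.3%, with 64.1% in PBAT. These 3 passed the limma test, with an adjusted p of 0.00814 for Mcts2 and 0.0005 for Zrsr1.

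The other imprinted members were covered less fully. Airn, the non-coding antisense transcript in an intron of Igf2r (chr17:12740811-12741811), went from 1.93 and 0% in the 40–45 μm class to 70.8 and 74.9% in the 60–65 μm class, with 34.4% in the 1 library of the class between that covered it. Snurf in Snrpn went from 7.75 and 9.93% through 12.2% in 1 library to 34.2 and 47.0%. Nespas in Gnas was at 53.5% in PBAT, whereas the start of Gnas, a G-protein subunit gene that by the same coordinates starts inside Nespas (0.0603 RPKM), was at 10.4% there and at 0 to 1.79% in 5 RRBS libraries. Nnat in Blcap was at 3.30 and 19.9% at 40–45 μm and 18.7 and 18.8% at 60–65 μm, a gain of 7.17 ± 5.69 points that did not pass (limma adjusted p = 0.981). Igf2as in Igf2 stayed at 0 to 2.77% in all RRBS libraries with a host at 0.0237 RPKM, and Cdh15, nested only by the Gm20388 model, was at 2.82% in PBAT. Airn, Snurf, Nespas, Gnas and Cdh15 lacked a value in at least 1 RRBS library and were not in the test.

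In the PBAT library nested starts in hosts with little RNA were seldom methylated. A start was counted as methylated at 25% or more. This held for 349 of 1478 nested starts (23.6%, 95% Wilson interval 21.5 to 25.8) and 487 of 15573 others (3.13%, 2.87 to 3.41). By host level the share was 4.89% (3.38 to 7.02) under 0.1 RPKM, 31.6% (26.6 to 37.2) from 0.1 to 1 RPKM, 36% (32.1 to 40.1) from 1 to 10 RPKM, and 38.0% (27.6 to 49.7) from 10 RPKM. The step lay between the lowest class and the next, and the 3 upper classes overlapped in their intervals. The intervals cover counting error only, since 1 library gives no spread between samples. The shares also moved with the settings. In hosts of at least 1 RPKM and under 1 RPKM they were 36.2 and 14.2%, 21.6 and 11.8% with 10 calls per cytosine, and 63.3 and 22.1% for starts with under 20 CpGs. In RRBS, starts in hosts of at least 1 RPKM were at 1.08 and 1.44%, 3.56 and 3.43%, and 6.24 and 6.70% in order of size, and those in hosts under 1 RPKM at 0.987 and 0.810%, 1.47 and 2.09%, and 2.56 and 2.52%. The difference was above 0 in 6 of 6 libraries (mean 2.0 points, exact sign-flip permutation p = 0.0312, adjusted 0.0417). It too rose with size, from 0.363 ± 0.380 to 3.94 ± 0.358 points (SD, n = 2), with p = 0.0222 in the exact permutation trend test (adjusted 0.0267). This trend was not among those planned. The difference no longer passed under 7 settings, at 1.94 to 3.77 points with an adjusted exact permutation p of 0.0625 to 0.0833, and leaving out hosts of 1 Mb or more, 1 of the 7, took it to 3.18 points.

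The direction of the difference by host strand depended on the settings. Starts with a host on the opposite strand were at 0.972 and 1.10%, 2.80 and 3.09%, and 4.94 and 5.25%, and those with a host on the same strand at 1.16 and 1.21%, 1.99 and 2.16%, and 3.29 and 3.40%. At 40–45 μm the order was reversed, and at both later sizes each opposite-strand value lay above each same-strand value. The mean difference of 0.821 points was positive in 4 of 6 libraries and did not pass (exact sign-flip permutation p = 0.125). The difference did rise with size, from -0.155 ± 0.0497 to 1.75 ± 0.146 points (exact permutation trend test, p = 0.0222, adjusted 0.0267; this trend was added after the data were seen). Requiring at least 10 cytosines per region turned the mean difference to -0.273 points, and this reversed difference passed (exact sign-flip permutation test, adjusted p = 0.0417). With opposite above same, it passed in the same test at 1.11 points without starts near another start and at 1.62 for genes wholly inside the host. Within 250 bp it was 0.171 points and did not pass. In PBAT, methylated starts made up 24.2% (21.7 to 26.8) of 1079 with opposite-strand hosts and 19.9% (16.1 to 24.4) of 351 with same-strand hosts. In hosts of 1 to 10 RPKM the shares were 39.9% (35.0 to 45.0) and 26.0% (20 to 33). In those of at least 10 RPKM they were 49.1% (36.1 to 62.1) of 53 and 0 of 13, for which the interval reached 22.8%. By level of the nested gene, in hosts of at least 1 RPKM, the order varied and the PBAT intervals overlapped in each class. Under 0.1 RPKM, 56.5% (50.4 to 62.4) of 262 starts with opposite-strand hosts and 41.7% (28.8 to 55.7) of 48 with same-strand hosts were methylated. Their 60–65 μm RRBS means were 14.8 and 16.5% over 56 starts against 3.30 and 5.16% over only 8. From 1 to 10 RPKM 7.14% (3.31 to 14.7) of 84 starts with opposite-strand hosts and 16.1% (9.83 to 25.2) of 87 with same-strand hosts were methylated. In RRBS the 60–65 μm means of these genes were 1.86 and 1.84% over 66 starts against 4.29 and 4.55% over 60. The latter group holds Sfi1, at 60.8 to 64.9% in the 6 RRBS libraries. From 0.1 to 1 RPKM the shares were 27.6% of 58 and 31.4% of 35, and from 10 RPKM they were 13.3% of 15 and 0 of 16. CpG number also moved with strand, with medians of 26 and 48 among the PBAT-covered starts in hosts of 1 to 10 RPKM, and its part in the strand difference was not tested.

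**Figure D3:**
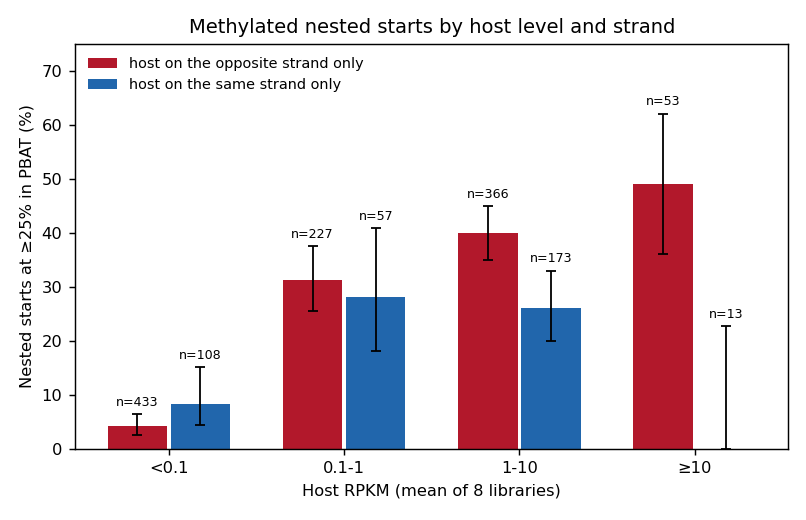
Share of nested starts (%) at 25% methylation or more in PBAT, by RPKM of the host and by strand. Bars are shares with 95% Wilson intervals and n is the number of starts; in the lowest host class 4.16% (opposite) and 8.33% (same) were methylated, against 39.9 and 26.0% in hosts of 1 to 10 RPKM.

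Among nested starts in transcribed hosts, those of silent genes were methylated more often than those of expressed genes. In hosts of at least 1 RPKM, the 66 starts of genes under 0.1 RPKM went from 1.18 and 1.69% through 7.19 and 6.70% to 13.4 and 14.9% over the size classes. The 152 starts of genes of at least 1 RPKM were at 1.10 and 1.28%, 1.97 and 2.16%, and 2.96 and 2.99%. The groups lay within 0.402 points of each other at 40–45 μm and did not overlap later. The difference was positive in 6 of 6 libraries, with a mean of 5.43 points (exact sign-flip permutation p = 0.0312, adjusted 0.0417), and grew from 0.244 ± 0.223 to 4.88 ± 0.478 and 11.2 ± 1.04 points (SD, n = 2). With at least 10 cytosines per region it fell to 2.79 points and no longer passed (adjusted exact permutation p = 0.0625), and under 4 other settings it was 4.84 to 6.14 points with an adjusted exact permutation p of 0.0833. With same-strand hosts the 60–65 μm RRBS means overlapped, at 3.30 and 5.16% for 8 silent genes and 4.29 and 4.55% for 60 of 1 to 10 RPKM, Sfi1 included. With opposite-strand hosts they were 14.8 and 16.5% against 1.86 and 1.84%. In PBAT the share of methylated starts fell in steps with the level of the nested gene, from 54.9% (49.5 to 60.2) of 326 under 0.1 RPKM to 28.4% (20.3 to 38.2) of 95 from 0.1 to 1 RPKM, 11.8% (7.85 to 17.4) of 178 from 1 to 10 RPKM and 6.06% (1.68 to 19.6) of 33 above. Starts of silent genes that were not nested were methylated in 4.32% (3.81 to 4.89) of 5463.

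The number of CpGs moved with the level of the nested gene and with its methylation. In hosts of at least 1 RPKM, the PBAT-covered starts of genes under 0.1 RPKM held a median of 19 CpGs and those of genes of at least 1 RPKM held 57. Within 20 to 49 CpGs the share of methylated starts was 50.0% (41.0 to 59.0) of 116 under 0.1 RPKM and 23.3% (13.2 to 37.7) of 43 from 1 to 10 RPKM. Within 50 CpGs or more it was 10.9% (4.73 to 23.0) of 46 and 2.75% (0.940 to 7.78) of 109, and under 20 CpGs it was 70.7% (63.4 to 77.2) of 164 and 30.8% (16.5 to 50.0) of 26. The order held in each class, although the intervals overlapped in the densest class, and the part of CpG number in the result was not tested beyond these classes. In RRBS only 13 nested starts had under 20 CpGs, and there the difference was -25.3 points, with 1 start in the group of 1 to 10 RPKM. Compared with other gene starts of like density, nested starts were methylated more often in PBAT in all 3 classes, at 39.3% (35.2 to 43.6) against 13.8% (12.3 to 15.4), 24.4% (21 to 28.3) against 4.25% (3.68 to 4.90), and 3.09% (1.81 to 5.21) against 0.465% (0.347 to 0.624).

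The host body around the start was methylated either way. For 1333 nested starts, PBAT also covered at least 5 cytosines of the host between 1.5 and 5 kb from the start. In hosts of at least 1 RPKM, this flank averaged 39.9% around 310 silent genes, whose starts averaged 36%. It averaged 33.9% around 162 genes of 1 to 10 RPKM, whose starts averaged 11%, and 30.4% around 31 genes of at least 10 RPKM, whose starts averaged 7.48%. Over hosts of every level, where the flank was at 25% or more, the start was at least 25 points lower in 24.5% of 323 silent genes, 64.1% of 92 from 0.1 to 1 RPKM, 70.9% of 141 from 1 to 10 RPKM and 78.3% of 23 above. CpGs again moved with this: the start was that much lower in 20.1% of 229 starts with under 20 CpGs, 39.5% of 190 with 20 to 49, and 84.4% of 160 with 50 or more.

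**Figure D4:**
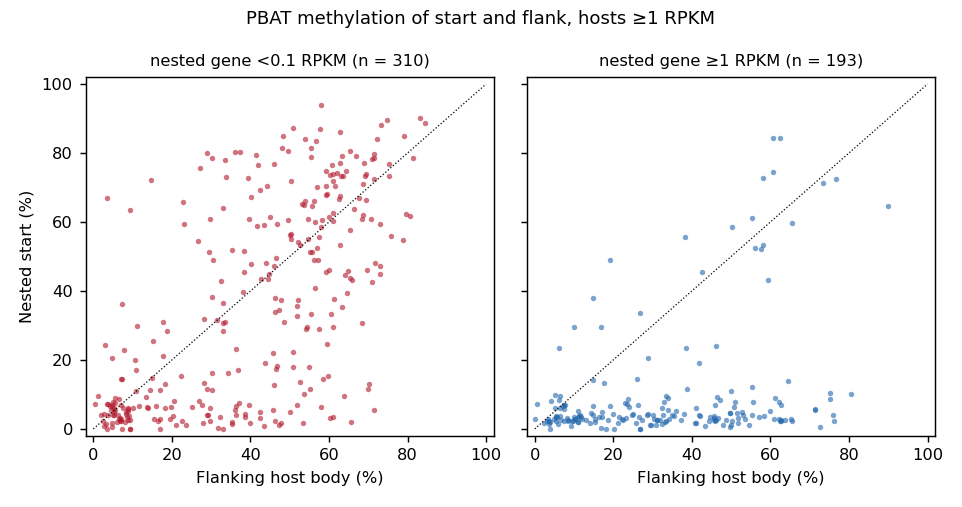
Methylation (%) of the nested start against the host body 1.5 to 5 kb away in PBAT, 1 point per nested start in hosts of at least 1 RPKM; the dotted line marks equal values. Silent genes (left, n = 310) lie around the line with a cloud near 0, and genes of at least 1 RPKM (right, n = 193) lie mostly at the bottom whatever the flank.

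Single genes show both outcomes. Ube2g2 (12.4 RPKM) starts in an intron of Sumo3 (14.3 RPKM) on the same strand, and its start was at 0.0625 to 1.59% in the 6 RRBS libraries and 2.36% in PBAT, where the flank was at 50.1%. Donson, a replication factor gene in the listed span of Atp5o, was at 2.30% in PBAT beside a flank at 65.6%. Samd10 in Prpf6 was at 2.78%, but there the flank was only 3.24%. Lxn (0.0382 RPKM) in Gfm1 (6.18 RPKM) was at 2.44 and 7.50%, 30.8 and 27.2%, and 54.0 and 53.7% in order of size, and at 61.7% in PBAT with a flank at 80.6%. Sfi1, a centrosomal gene, stood apart at 60.8 to 64.9% in all 6 RRBS libraries, the only nested start above 25% in both at 40–45 μm. Its region drew 10381 PBAT calls, against 1482 for Ube2g2 and 449 for Lxn.

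**Figure D5:**
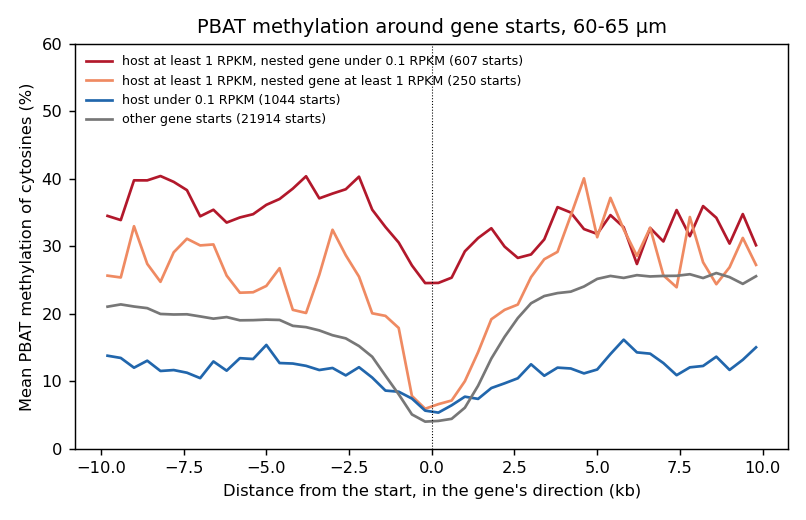
Mean PBAT methylation (%) of cytosines with at least 5 calls in 400-bp bins by distance (kb) from the start, in the direction of the gene. Next to the start, silent nested genes in hosts of at least 1 RPKM are at 24.6%, expressed ones at 5.93 to 6.62%, those in hosts under 0.1 RPKM at 5.36 to 5.65% and other gene starts at 4.03 to 4.13%.

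The same separation was seen along the sequence. Around silent nested genes in hosts of at least 1 RPKM the mean over cytosines was 36.2% at 5 kb upstream and 24.6% next to the start, and around expressed ones it went from 24.1% to 5.93%. Around nested starts in hosts under 0.1 RPKM it was 15.4% and 5.65%. The mean over cytosines gives CpG-dense starts more weight than the mean over starts does.

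RNA of nested genes changed about as often as that of other genes. With genes of at least 0.5 RPKM in 2 of 8 libraries, 538 nested genes were tested with limma on log2(RPKM + 0.1). From 40–45 to 60–65 μm 111 rose (20.6%; 18.2% of all genes tested) and 90 fell (16.7%; 19.2% of all). From 10–30 to 60–65 μm 185 rose (34.4%; 30.7% of all) and 158 fell (29.4%; 32.5% of all). Leaving out the 60–65 μm library A took the 40–45 to 60–65 μm counts to 46 and 23, and the falls were 50 without the 40–45 μm library B and 57 without the 60–65 μm library B. On the RPKM as deposited, without scaling, the split from 40–45 to 60–65 μm was 131 up and 72 down of 538. All 10518 genes tested moved the same way, with 2279 up and 1604 down.

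Among nested genes without a predicted symbol, the largest log2 rise was in Prr18, in Sft2d1. It went from 0.173 and 0.138 RPKM at 10–30 μm to 5.97 and 3.58 at 60–65 μm (log2 change 4.19). Cox6a2, a subunit of cytochrome oxidase, went from 0.0612 and 0.0765 to 1.39 and 1.17 RPKM (log2 change 3.01) and Obox1, an oocyte homeobox gene with near-identical relatives, from 11.6 and 13.4 to 93.8 and 94.8 RPKM (2.90). Prr18 and Cox6a2 were under 0.5 RPKM at 10–30 μm and entered the test through later libraries, where they were higher, so their changes are given as values only. Sycp3, which encodes a component of the meiotic chromosome axis, had the largest fall on the log2(RPKM + 0.1) scale among these symbols. It went from 43.1 and 31.7 to 5.24 and 6.86 RPKM, with a log2 change of -2.62 (limma adjusted p = 2.67e-05). Its start, in Chpt1 (0.26 RPKM), was at 0.14 to 6.71% in RRBS. In all 4 genes the libraries of the earliest and latest size did not overlap, which follows from their choice as large called changes. Btbd6 fell from 0.554 and 0.825 to 0.0137 and 0.0503 RPKM over the same sizes. Its log2 change of -2.56 was held down by the added 0.1.

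Among the 32 starts that gained methylation, RNA could be tested for 8, and from 40–45 to 60–65 μm 5 fell and none rose, where 19.2% of all genes tested fell and 18.2% rose. Btbd6 in Brf1 went from 0.242 and 0.446 RPKM at 40–45 μm to 0.155 and 0.186 and then 0.0137 and 0.0503 (log2 change -1.76), while its start went from 1.44 and 2.91% through 29.1 and 4.50% to 54.4 and 64%. Rps4y2, a ribosomal protein gene in Tmtc1, went from 35.3 and 43.2 through 23.1 and 26.5 to 17.3 and 18.3 RPKM (log2 change -1.20 ± 0.129, SE; limma adjusted p = 0.000655), and its start from 0.340 and 0.580% through 22.4 and 9.33% to 50.3 and 43.9%. It was thus still abundant with its start near 50%. Ovca2 in Dph1 fell by 0.81 on the log2 scale and the pseudogene Gm3150 in Trappc9 by 0.57. Mcts2 had a log2 change of -1.19. Btbd6 and Mcts2 were under 0.5 RPKM in both 60–65 μm libraries and entered the test through smaller oocytes, where they were higher, so 2 of the 5 falls were favoured by the filter and nothing is drawn from the count. RNA of Rps4y2, Mcts2, Obox1, Gm3150 and Gm6736 may include reads from near-identical copies. Pdf in Cog8 was at 1.49 to 2.02 RPKM in all 8 libraries while its start went from 0.680 and 1.83% to 56.4 and 55.8%. Pdf and Ovca2 each start in an exon of a host on the same strand, so their RNA may include reads of the host. Dph1 itself went from 1.12 to 0.817 RPKM between 40–45 and 60–65 μm. RNA in oocytes is long-lived, and these values are levels, not rates of transcription.

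Falls and rises by start were as follows. Of 54 nested genes tested for RNA whose start was at 25% or more in PBAT, 5 rose and 15 fell from 40–45 to 60–65 μm, and of 333 whose start was under 10%, 75 rose and 51 fell, where 18.2% of all genes tested rose and 19.2% fell. The 15 include Btbd6 and Mcts2, and since a gene could pass the 0.5 RPKM filter through the size at which it was higher, these counts are a description and nothing is drawn from them. The median log2 changes were -0.03 and 0.03. Only 2 nested genes of at least 10 RPKM at 60–65 μm had a start at 50% or more in PBAT. Gm11815, in a region 87.5% repeat-masked, had 44.1 and 44.8 RPKM and 54.2% (69 calls), and Gm6736, a pseudogene in Nbas, 12.7 and 12.4 RPKM and 71.2% (48 calls). Krt12, a keratin gene in the listed span of A830036E02Rik, rose from 0.561 and 0.608 to 3.31 and 2.60 RPKM (log2 change 2.09, limma adjusted p = 0.000401) with its start at 65.7 and 44.1% in RRBS at 60–65 μm.

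Short motifs were counted around the nested starts, as a description with no test. In the window from 250 bases before to 50 after the start, read on both strands, GGGCGG, the core of a GC box, was present in 40.9% of all 24483 starts and 23.0% of nested starts. It was present in 15.8% of the 222 nested starts at 50% or more in PBAT and 44.8% of the 939 under 10%. CGCGC was present in 9.01 and 38.1% of the same groups, TGCCGC in 9.46 and 16.1%, and CCAAT in 24.3 and 33.4%, while the order was the other way for TATAAA, at 15.8 and 7.03%. The window held a median of 6 CpGs in the first group and 12 in the second, and each motif but the CCAAT box and the TATA box contains a CpG. Over all starts the shares, in the order given, were 34.7, 13.1, 37.3 and 13.3%. These are matches of letters, and binding was not measured.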

How the data were processed

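RRBS, PBAT and RNA-seq libraries were grouped by size class from the labels. Per the labels and the study's methods, the authors trimmed bisulphite reads with Trim Galore and aligned them to GRCm38 with Bismark, and the deposited files give for each CpG cytosine the counts of methylated and unmethylated calls and the percent methylation. The authors aligned RNA-seq reads with TopHat2 and deposited RPKM per gene. Whether those RPKM used the strand is not given in the sources used here.

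From these files, a region's methylation was the mean of its cytosines with at least 5 calls, where at least 5 remained within 500 bp of the start. Changes were tested with limma 3.58.1 (trend, robust) on percentages, or on log2(RPKM + 0.1) after scaling each library by a trimmed mean of log ratios to the first, for genes of at least 0.5 RPKM in 2 libraries. Fold changes of low genes are understated on that scale. Group means were compared with exact permutation tests and p-values adjusted by Benjamini–Hochberg. Alternatives included edgeR 4.0.16 on calls, other depth and window limits and leaving out each library. Starts were placed with the GENCODE M21 annotation. Calls per library and reads per RNA-seq library are given in the text, and intervals and shares from counts cover counting error only.

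The genes named were nested imprinted genes of a list; among other non-predicted symbols covered in all 7 libraries, the 6 highest in PBAT for each strand and the 6 lowest in hosts of at least 10 RPKM; nested genes of at least 10 RPKM with starts of at least 50%; up to 5 of the largest gains called by 50–55 μm (4 were called) and the 5 called later with the lowest values there; and the 5 largest RNA rises and falls in each contrast. The largest RNA rises and falls were ranked on the log2 scale among non-predicted symbols. Members and lists were chosen with earlier results of these data known. The limma step was checked on simulated data: in its first forms it recovered none of the raised starts, although the larger rises were as large as some gains called in the data. The simulated spread and rises were then changed after those calls had been seen, and recovery then depended on the size of the rise and on the spread assumed. Libraries with equal replicate letters were not treated as pairs. Their deviations correlated by -0.061 to 0.00875 in RRBS. In RNA-seq 4 of 6 pairs of size classes correlated above 0.1, at 0.590 to 0.670 among the 3 smaller classes and 0.113 for 50–55 with 60–65 μm, and the other pairs with 60–65 μm gave -0.225 and -0.0251.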

Additional observations from a re-analysis of the deposited data

How the results depend on the processing

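The rise of nested starts with oocyte size passed under each alternative run that has a test. It was 3.45 points in the main setting, 2.02 with at least 10 cytosines and 20.3 for the 13 starts with under 20 CpGs. The share of methylated starts in PBAT, 36.2% in hosts of at least 1 RPKM and 14.2% in the others, was 44.8 and 17.3% with 1 call per cytosine, 21.6 and 11.8% with 10, 22.0 and 9.76% with at least 20 CpGs, 63.3 and 22.1% with fewer, and 40.3 and 16.8% for genes wholly inside the host. For the first group alone it was 40.3% with 3 cytosines, 27.4% with 10, 28.7% within 250 bp, 40.8% within 1000 bp, 41.3% without starts near another start and 41.9% in hosts under 1 Mb.

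Passing was judged by the adjusted p, which also depends on the p-values of the other differences tested under that setting. Nested minus other starts no longer passed at 1.63 points (10 calls), 1.55 (250 bp), 2.05 (regions measured in each library), 7.93 (under 20 CpGs) and 2.16 (hosts under 1 Mb). The difference by host level did not pass under the same settings, at 1.94, 2.48, 2.32, 3.77 and 3.18 points, nor at 2.42 without starts near another start and 2.11 for genes wholly inside. Silent minus expressed genes did not pass at 5.23 (10 calls), 2.79 (10 cytosines), 4.84 (250 bp), 6.14 (each library) and 6.14 points (hosts under 1 Mb), and turned to -25.3 under 20 CpGs. Opposite minus same strand passed in the reverse direction at -0.273 with 10 cytosines, and in the stated direction at 1.11 without starts near another start and 1.62 for genes wholly inside, each with an adjusted exact permutation p of 0.0417. The cause was not tested. Analyses of genes wholly inside, of repeat-masked regions and of hosts under 1 Mb were chosen after seeing the data. With 1 library left out, these exact tests cannot pass, and the values ran from 1.49 to 2.14 (nested minus other), 1.57 to 2.39 (host level), 4.14 to 6.50 (silent minus expressed) and 0.615 to 1.02 points (strand).

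Of the 48 nested starts that averaged 5% or higher in RRBS, 15 gained from 40–45 to 50–55 μm. From 50–55 to 60–65 μm 38 of them gained and 1 lost methylation. Of all 165 starts kept by this limit, 33 and 106 gained in these steps. Starts low at 40–45 μm pass the limit only through larger oocytes, so it favours gains and nothing is drawn from these counts. Without it, nested starts gaining from 40–45 to 50–55 μm numbered 11 with the arcsine transform, 8 with 10 calls and 2 with edgeR. Those from 50–55 to 60–65 μm numbered 1, 20 and 0, and 10 without the trend. With 1 library left out the ranges were 0 to 8, 0 to 0, and 0 to 29 over the whole interval. With the replicate number as a block the counts were 10, 18 and 32, and for RNA 129 rises and 113 falls from 40–45 μm and 200 and 177 from 10–30 μm, so the block moved no count but the first by over 1.5 times. In RRBS no pair of size classes correlated above 0.1. Without the filter, RNA rises numbered 192 from 40–45 μm and 327 from 10–30 μm, with 262 falls from the latter. With 1 library left out, rises from 40–45 μm ran from 46 to 127 and falls from 23 to 97.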

Other observations

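Nested starts of predicted genes were methylated in PBAT at 25% or more in 177 of 546 cases for symbols beginning Gm and 56 of 237 for Rik, against 115 of 655 for other named genes. None of the 13 covered Hox starts and none of the 13 covered Zfp starts reached that level, where 23.6% of all covered nested starts did. With 13 starts the 95% Wilson interval reached 22.8%, so little can be said of these families. By biotype the share was 33.3% (95% Wilson interval 28.8 to 38.2) for antisense genes, 44.1% (28.9 to 60.5) for 34 pseudogenes and 15.4% (12.9 to 18.3) for protein-coding genes, whose covered starts held medians of 19, 23 and 43 CpGs. With nested starts split into 4 equal classes by distance to the host start, the share was 15.5% in the nearest class, then 25.7, 32.1 and 22.6%. For nested genes wholly inside the host it was 27.4% and for those reaching beyond it 14.4%. CpG number moved with both splits, with medians over the covered starts of 31, 26.5, 21 and 27 by distance, and of 23 inside and 36 beyond. Its part was not tested.

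Of 1745 nested genes under 0.1 RPKM in all 8 libraries of growing oocytes, 0 reached 1 RPKM in the GV library, which has no replicate.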
